A study of Bos taurus with 8 samples.

Results

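Transcripts of a set of transcription factors that control the oocyte's own gene program were followed in bovine oocytes collected in summer and in winter. The set comprised 7 genes, FIGLA, NOBOX, SOHLH1, SOHLH2, LHX8, TBPL2 and TAF4B, and its members were found by their gene symbol in a table of 26804 genes. A row of that name was found for 5 of the 7. SOHLH1 and SOHLH2 had no row under their symbols and were not analysed here. All 5 remaining members were among the 13379 genes tested, and each passed the filter on low values in both seasons.

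These factors act at successive points of oocyte growth. FIGLA, SOHLH1 and SOHLH2 are basic helix-loop-helix proteins, which bind E-box sequences as dimers, and FIGLA is known in the mouse for activating the zona pellucida genes that build the coat of the egg. NOBOX and LHX8 are homeodomain proteins, and mice that lack either lose their oocytes around the time primordial follicles begin to grow. TBPL2 and TAF4B belong to the general transcription machinery. TBPL2 is the oocyte's relative of the TATA-binding protein TBP, which it replaces at promoters in growing mouse oocytes, and TAF4B is a gonad-enriched relative of the TFIID subunit TAF4 that is needed for the ovarian reserve in mice.

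The libraries were made from denuded, immature oocytes of non-lactating beef cows (Bos taurus) that had calved more than once, given as Angus in the labels and as crossbred in the study's methods. The cows belonged to a single herd that was aspirated in both seasons, and both groups received the same progesterone device and follicle-stimulating hormone before aspiration, so the seasons differed in no treatment. There were 4 summer libraries (A, B, C and E) and 4 winter libraries (A, B, D and E), each a pool of RNA from a pair of cows. Each season was a single collection, so season cannot be told apart from collection session, and the better-graded oocytes that were kept had different grade proportions in the seasons. All values are TPM, a share of transcripts corrected for their length, in which every library sums to 1000000 and which allow levels of different genes to be compared within a library. TPM does not carry the depth of each library, so the counting error of a single value was not computed.

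The labelled cell type was present in every library, since all 28 oocyte marker genes found in the table were above 0 in all libraries. Together they held 2.52% to 2.93% of TPM in summer and 0.802% (winter E) to 1.82% in winter. The 19 cumulus and granulosa markers, which belong to the somatic cells around the oocyte, were also above 0 throughout and held 0.882% to 1.27% in summer and 1.06% to 3.98% in winter, with winter E highest. Theca and stroma markers held 0.0201% to 0.0294% in summer and 0.0441% to 0.244% in winter. Erythrocyte markers held 0.0709% to 0.282% in summer and 0.0534% to 0.385% in winter. Nearly all of that was HBA, while HBB reached at most 2.01 TPM, in winter E. Leukocyte markers were low apart from winter A, in which CD74 stood at 616 TPM while PTPRC, the pan-leukocyte marker, stood at 0.680 TPM. In such bulk libraries fewer oocytes among other cells and less of a transcript per oocyte cannot be told apart.

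FIGLA was the most abundant member, and NOBOX, LHX8, TBPL2 and TAF4B followed in that order in both seasons, by mean and by median. The order was the same in 7 of the 8 libraries. In winter A, the exception, TAF4B stood above TBPL2. Counted from the highest gene downwards, FIGLA ranked between 346 and 490 in summer and between 645 and 1471 in winter, among 14477 to 16448 genes above 0. TAF4B, at the other end, ranked between 10165 and 11632 in summer and between 7412 and 11266 in winter.

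Neighbours in this order were mostly well separated. FIGLA exceeded NOBOX in every library, by 2.15 to 2.87 times in summer and 2.199 to 3.20 times in winter. NOBOX exceeded LHX8 by 1.33 to 1.59 times in summer and 1.14 to 2.15 times in winter. In winter the TPM values of the pair overlapped between libraries, but NOBOX was the higher of the pair within every library. LHX8 was 3.79 to 7.78 times TBPL2 in summer and 2.88 to 4.64 times in winter. TBPL2 was 3.56 to 4.61 times TAF4B in summer but 0.529 to 2.62 times in winter, when the order of these last members was not the same in every library.

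**Figure D1:**
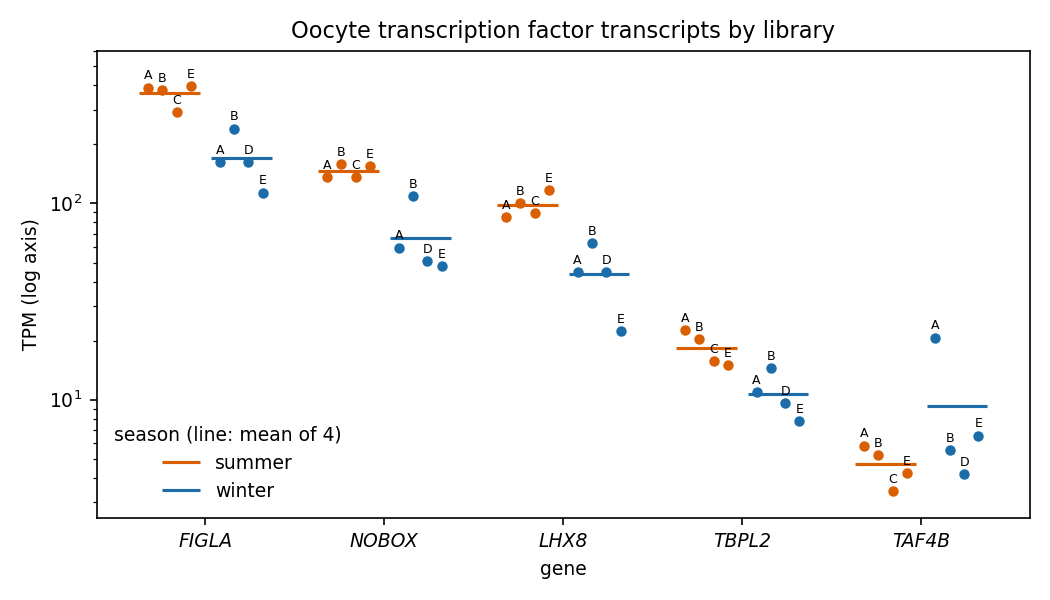
TPM of the 5 members (vertical axis, log scale) in each of the 4 summer and 4 winter libraries, with genes along the horizontal axis, a lettered point per library and a line at each season's mean. FIGLA, NOBOX, LHX8 and TBPL2 have every summer point above every winter point, and the high winter point of TAF4B is winter A at 20.7 TPM.

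The main comparison asked whether members differed between summer and winter oocytes. By their estimates FIGLA, NOBOX and LHX8 were each more than 2-fold higher in summer, TBPL2 was higher by less than 2-fold, and TAF4B did not pass the test. Differences are given as log2(TPM + 1) in summer minus winter, tested with limma across all 13379 genes with Benjamini-Hochberg adjustment, and calling a gene required both an adjusted p under 0.05 and a difference of at least 1. By this rule 3 of the 5 members were called higher, against 4.40% of all tested genes, and 0 of 5 were called lower, against 5.17%. At the adjusted p alone, 4 of 5 were higher, against 14.9% of all genes, and 0 were lower, against 11.9%. The median difference was 1.14 over the members and -0.03 over all tested genes. When limma tested for a difference of more than 1.5-fold, no member passed. The adjusted p was then 0.281 for FIGLA, 0.285 for NOBOX and 0.331 for LHX8. Over all genes 3 higher and 64 lower passed that test.

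FIGLA stood at 389.7, 377, 294 and 397 TPM in summer A, B, C and E, and at 163, 241, 163 and 114 TPM in winter A, B, D and E. The seasons did not overlap, with summer C the lowest summer library and winter B the highest winter one. Its mean was 364 ± 48.0 TPM in summer and 170.1 ± 52.6 TPM in winter (SD, n = 4 each). The difference was 1.14 on the log2 scale (SE 0.21, limma adjusted p = 0.00643), and the ratio of the means was 2.14.

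NOBOX, whose loss in the mouse lowers a wide range of oocyte-specific transcripts, stood at 136, 159, 136 and 155 TPM in summer A, B, C and E. In winter A, B, D and E it stood at 59.6, 109.5, 51.0 and 48.1 TPM. The summer libraries lay close together, with a coefficient of variation of 8.36%, whereas the winter libraries varied by 42.9% and winter B stood well above the other winter libraries. The lowest summer library was still above winter B. The means were 146 ± 12.2 TPM and 67.0 ± 28.7 TPM (SD, n = 4 each), which gave a difference of 1.19 (SE 0.23, limma adjusted p = 0.00743).

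LHX8, a LIM-homeodomain protein of the germ line, stood at 85.5, 99.96, 89.4 and 117 TPM in summer A, B, C and E. In winter A, B, D and E it stood at 44.6, 63.0, 44.7 and 22.3 TPM. Winter E was the lowest and winter B the highest of the winter libraries, and none reached the lowest summer library. The means were 98.0 ± 14.1 TPM and 43.7 ± 16.6 TPM (SD, n = 4 each). The difference was 1.23 (SE 0.27, limma adjusted p = 0.0104), within its error of those of FIGLA and NOBOX.

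TBPL2, the TBP relative of oocytes, was less abundant than the 3 factors above and showed a smaller difference. Its values were 22.6, 20.3, 15.8 and 15.0 TPM in summer A, B, C and E and 11.0, 14.4, 9.63 and 7.76 TPM in winter A, B, D and E. Summer E and winter B nearly met, at 15.0 and 14.4 TPM, but the seasons did not overlap. The means were 18.4 ± 3.61 TPM and 10.7 ± 2.82 TPM (SD, n = 4 each), and the difference was 0.74 (SE 0.23, limma adjusted p = 0.0388). This adjusted p passed 0.05 by little, and it reached 0.107 when 1 library was left out, staying under 0.05 only without winter B.

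TAF4B stood at 5.84, 5.23, 3.43 and 4.23 TPM in summer A, B, C and E, and at 20.7, 5.51, 4.19 and 6.57 TPM in winter A, B, D and E. A single library, winter A, stood far above the rest, which lay between 3.43 and 6.57 TPM and overlapped between seasons. The means were 4.68 ± 1.07 TPM in summer and 9.25 ± 7.72 TPM in winter (SD, n = 4 each), while the winter median was 6.04 TPM. The difference was -0.62 (SE 0.41, limma adjusted p = 0.274), and without winter A it was -0.18 (adjusted p = 0.647). Winter A was also the library with high CD74, and whether this bears on its TAF4B level was not tested.

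In all, 4 of the 5 members had every summer library above every winter library, as did 15.4% of all tested genes. Winter E, the library with the lowest share of oocyte transcripts and the highest share of cumulus and granulosa transcripts, was the lowest of the 8 for FIGLA, NOBOX, LHX8 and TBPL2. Without winter E the differences were 0.96 for FIGLA and 0.94 for LHX8 (limma adjusted p = 0.0118 for each), just under the 2-fold limit, while NOBOX was still called at 1.06. With the mean level of the cumulus and granulosa list as a covariate, the differences were 0.68 for FIGLA (adjusted p = 0.0960), 0.80 for NOBOX (0.133) and 0.65 for LHX8 (0.188), and 0 of the 5 were called.

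**Figure D2:**
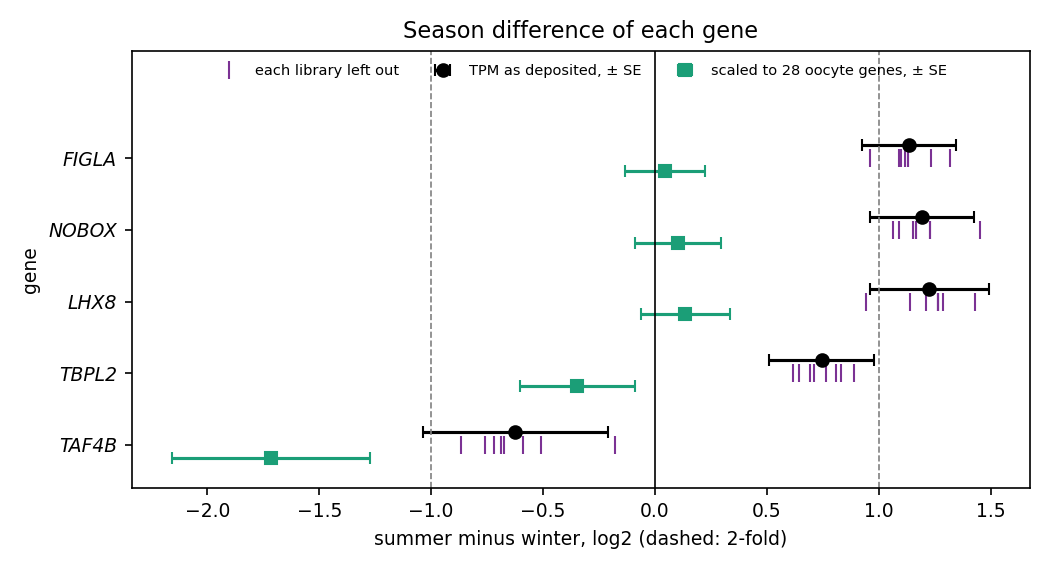
Season difference of each member in log2(TPM + 1), summer minus winter (horizontal axis), as reported (black) and after scaling to the oocyte gene list (green), with limma estimates as points, standard errors as bars and the estimates with each library left out as purple ticks. FIGLA moves from 1.14 to 0.04 and TAF4B from -0.62 to -1.71 once values are taken relative to the oocyte list.

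The members were then set against the oocyte's other transcripts. The 28 oocyte genes, none of which is a member, were themselves higher in summer, with a median difference of 1.16 and 24 called higher. Each member's log2(TPM + 1) was therefore expressed relative to the mean of these genes in the same library. On this scale FIGLA was at -0.53 ± 0.16 in summer and -0.58 ± 0.09 in winter, NOBOX at -1.83 ± 0.07 and -1.94 ± 0.27, and LHX8 at -2.42 ± 0.18 and -2.55 ± 0.20 (SD, n = 4 each). The seasons overlapped for all 3.

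**Figure D3:**
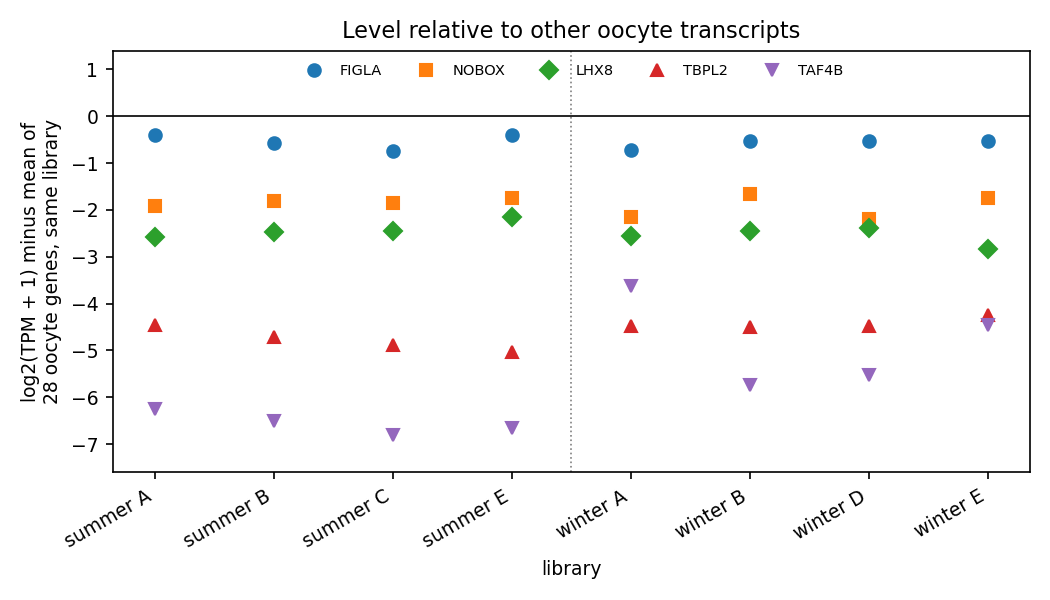
Level of each member relative to the mean of the 28 oocyte genes in the same library (vertical axis, log2), for the 4 summer and 4 winter libraries (horizontal axis). FIGLA stays between -0.74 and -0.40 across both seasons, while TAF4B is closer to the oocyte genes in winter, above all in winter A at -3.62.

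After this scaling limma gave differences of 0.04 for FIGLA (SE 0.18, adjusted p = 0.827), 0.10 for NOBOX (SE 0.19, adjusted p = 0.637) and 0.14 for LHX8 (SE 0.20, adjusted p = 0.541). No season difference beyond that of the oocyte genes was thus detectable for these members, within errors of about 0.2. For TBPL2 the scaled difference was -0.35 (SE 0.26, adjusted p = 0.233), opposite in sign to its unscaled difference. TAF4B was at -6.55 ± 0.24 relative to the oocyte mean in summer and at -4.83 ± 0.99 in winter (SD, n = 4 each), and its scaled difference was -1.71 (SE 0.44, adjusted p = 0.00437). Winter B, D and E, at -5.74, -5.52 and -4.45, were above the highest summer library at -6.24 as well as winter A. That is no mark of TAF4B, since 55.9% of all tested genes were called lower in summer on this scale and the median of all genes was -1.12.

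The members also differed in how closely they followed one another across the 8 libraries. Likeness was measured as the root mean square difference between centred log2(TPM + 1) values, with smaller values more alike, and it is a description without a test over libraries that share the season split. FIGLA and NOBOX differed by 0.182, FIGLA and LHX8 by 0.191, and NOBOX and LHX8 by 0.253. TBPL2 stood further off, at 0.266 from FIGLA, 0.332 from NOBOX and 0.401 from LHX8. TAF4B differed from the other members by 0.904 to 1.17.

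Among 9244 genes with a symbol and a mean of at least 10 TPM, the closest to FIGLA was H1-8, the oocyte linker histone, at 0.0660, followed by TMEM150A at 0.0783 and TLE6, a subunit of the subcortical maternal complex, at 0.0875. The median gene was at 0.677. The closest to NOBOX were SYCP3, a component of the meiotic chromosome axis, at 0.0751, OOEP, another subunit of the subcortical maternal complex, at 0.0874 and SLBP2, an oocyte histone mRNA binding protein described in Xenopus and cattle, at 0.0878. LHX8 was closest to GDF9, an oocyte growth factor, at 0.105, then to ZNF200 at 0.128 and SRPX at 0.134.

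TBPL2 and TAF4B had neighbours of another kind. The closest to TBPL2 were NUDT2 at 0.0950, SDF2L1, an endoplasmic reticulum protein, at 0.107 and ZNRF1, a ubiquitin ligase, at 0.121. The closest to TAF4B were SERPINB1, a protease inhibitor, at 0.194, EPHA2, a receptor tyrosine kinase, at 0.197 and RELB, a subunit of NF-kappa-B, at 0.216. Each of these 3 was highest in winter A. SERPINB1 stood there at 40.3 TPM, EPHA2 at 235 TPM and RELB at 52.0 TPM. These lists depended on the season split. When each season was centred on its own mean, the 3 closest to NOBOX stayed the same, FIGLA kept H1-8 only, TAF4B kept SERPINB1 and RELB, and TBPL2 kept none. LHX8 then kept ZNF200 and GDF9 behind TSPAN13, and with a pseudocount of 0.1 ZNF200 came before GDF9.

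FIGLA works as a dimer with an E protein, and ID proteins can occupy E proteins in its place. Of the 7 genes of this E protein and ID list, 1 was called higher, 0 were called lower, and the median difference was -0.75. ID3 was the one called, with means of 1270.1 ± 118 and 581 ± 189 TPM in summer and winter (difference 1.18, limma adjusted p = 0.00581). ID1 was lower in summer by the adjusted p alone (-0.75, adjusted p = 0.0377), and the differences of ID2 (-0.75, adjusted p = 0.0676) and ID4 (-1.996, adjusted p = 0.152) did not pass the test. ID4 passed the filter on low values only through its winter libraries. TCF3, which encodes the E12 and E47 partners of FIGLA, had means of 77.1 and 65.2 TPM and a difference of 0.23 (adjusted p = 0.272). TCF12, another E protein, was lower in summer by the adjusted p alone, at -0.94 (adjusted p = 0.0402).

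Ratios within a library, which were not tested, set FIGLA beside its partners. FIGLA stood at 6.11, 4.31, 4.25 and 4.51 times TCF3 in summer A, B, C and E and at 2.18, 3.64, 2.64 and 1.95 times in winter A, B, D and E. No winter library reached the lowest summer ratio. FIGLA was 16.4 to 57.6 times TCF12 in summer and 3.58 to 8.63 times in winter, again without overlap. Against ID3 it was 0.287 ± 0.0269 in summer and 0.297 ± 0.0534 in winter (SD, n = 4 each), and these ranges overlapped. After scaling to the oocyte list the season difference was 0.04 for FIGLA, -0.86 for TCF3, -2.03 for TCF12 and 0.09 for ID3. The median of all tested genes was -1.12 on that scale, so separation from TCF3 and TCF12 is by itself no mark of these pairs. The share of all genes separated from FIGLA in this way was not computed.

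LHX8 belongs to the LIM-homeodomain family, whose members work with the adaptor LDB1 and compete for it with LMO proteins. Of 10 such cofactor genes 9 were tested, of which 2 were called higher and 0 lower, with a median difference of 0.15. The called genes were LMO1 (1.02, limma adjusted p = 0.0310) and LMO3 (1.06, adjusted p = 0.0233), and with 1 library left out 0 to 2 were called. LMO1 was called only with all libraries or without summer E or winter B, and LMO3 was not called without summer B, C or E or without winter D or E (adjusted p up to 0.0886 for LMO1 and 0.0627 for LMO3). LDB1 itself had means of 106 and 94.97 TPM and a difference of 0.15 (adjusted p = 0.453). LHX8 amounted to 0.938, 0.945, 0.918 and 0.895 of LDB1 in summer A, B, C and E and to 0.427, 0.654, 0.554 and 0.227 in winter A, B, D and E. The summer ratios were nearly equal, and every winter ratio lay below them. After scaling to the oocyte list the season difference was 0.14 for LHX8 and -0.94 for LDB1, while the median of all tested genes was -1.12. The separation is therefore by itself no mark of this pair.

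Of the 11 other LIM-homeobox genes 7 were tested. All 7 had positive differences, 4 were called higher and 0 lower, and their median difference was 1.06. The oocyte list had a median of 1.16, and after scaling to it the median of these 7 was -0.03, with 0 called. The shift is therefore by itself no mark of this family. LHX2, known from brain and hair follicle development, was as abundant as LHX8, with 95.8, 89.4, 110.3 and 114 TPM in summer and 48.2, 60.6, 49.1 and 38.1 TPM in winter. The seasons did not overlap, and the difference was 1.06 (limma adjusted p = 0.00458). LHX3 (1.27), ISL2 (1.25) and LMX1B (1.16) were called at lower levels of under 13 TPM on average. The ratio of LHX8 to LHX2 was 0.811 to 1.12 in summer and 0.587 to 1.04 in winter, with overlap. The call of LHX3 was lost without summer B, C or E or winter A or D (adjusted p up to 0.0904), that of ISL2 without summer A, B or E or winter A, D or E (up to 0.116), and that of LHX2 without winter E (difference 0.95).

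**Figure D4:**
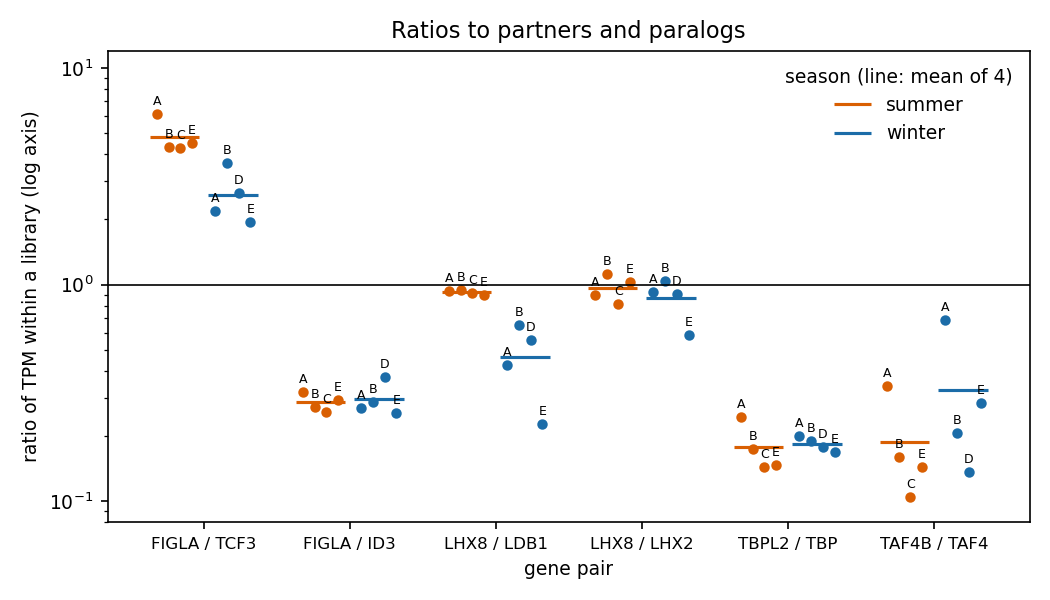
Ratios of members to partner or paralog genes within each library (vertical axis, log scale), with 1 point per summer and winter library. FIGLA to TCF3 and LHX8 to LDB1 are separated by season, while FIGLA to ID3, LHX8 to LHX2 and TBPL2 to TBP overlap.

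TBPL2 and TAF4B act through the complexes that assemble at promoters. Of the 17 genes listed for TFIID, 14 were tested, 2 were called higher, 1 was called lower and the median difference was 0.07. The list includes TBPL1, which is not a TFIID subunit and is 1 of the 2 called higher. TBPL1, a further TBP relative used in male germ cells of the mouse, had means of 197 ± 15.2 and 96.4 ± 21.4 TPM in summer and winter (1.05, limma adjusted p = 0.00486). TBP was at 105 ± 10.4 and 57.7 ± 12.9 TPM (0.87, adjusted p = 0.00703), under the 2-fold limit. TAF5, a scaffold subunit of TFIID, was also called higher (1.03, adjusted p = 0.00592), and TAF13 was the one called lower (-1.08, adjusted p = 0.00739). Without winter E neither TBPL1 (0.91) nor TAF5 (0.89) reached the 2-fold limit, nor did TAF5 without winter D (0.96) or summer C (0.998), or TAF13 without summer C (-0.98).

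TBPL2 was the least abundant of the TBP family in every library. It stood at 0.145 to 0.246 of TBP in summer and at 0.169 to 0.201 in winter, and at 0.0745 to 0.125 of TBPL1 in summer and 0.1001 to 0.122 in winter. Both ratios overlapped between the seasons. TAF4B likewise stayed below its paralog TAF4, at 0.105 to 0.342 of TAF4 in summer and 0.136 to 0.684 in winter. TAF4, named after its values were seen, had means of 27.95 and 27.7 TPM and a difference of -0.02 (limma adjusted p = 0.950).

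TBPL2 works with TFIIA in the mouse oocyte. Of the 4 TFIIA and TFIIB genes 1 was called higher and 0 lower, with a median difference of 0.71. The called gene was GTF2A1L, the germ-cell form of the large TFIIA subunit, at 71.6, 81.5, 67.2 and 64.4 TPM in summer A, B, C and E and at 29.1, 50.2, 41.2 and 22.2 TPM in winter A, B, D and E. The seasons did not overlap, and the difference was 1.04 (limma adjusted p = 0.0114), which fell under the limit without summer B (0.97), winter A (0.96) or winter E (0.84). GTF2B (0.78, adjusted p = 0.00789) and GTF2A2 (0.63, adjusted p = 0.0210) were higher by the adjusted p alone, and GTF2A1, the widely expressed form, had a difference of -0.28.

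Genes that depend on these factors in the mouse were read next, with ZP4 kept beside them as a further zona pellucida gene. The 3 zona pellucida genes found in the table were all called higher, and of these ZP2 and ZP3 are FIGLA targets in the mouse. ZP3 stood at 2955, 3029, 2615 and 2482 TPM in summer A, B, C and E and at 1253, 1975, 1155 and 679 TPM in winter A, B, D and E, without overlap (1.22, limma adjusted p = 0.0116). ZP2 was at means of 1722 and 869 TPM (1.08, adjusted p = 0.0190) and ZP4 at 1302 and 629 TPM (1.15, adjusted p = 0.0145). Without winter E the differences were 0.96 for ZP3, 0.79 for ZP2 and 0.87 for ZP4, and 0 of the 3 were called. The call of ZP2 was also lost without summer B (adjusted p = 0.0559) or winter D (0.0507). FIGLA amounted to 0.112 to 0.160 of ZP3 in summer and 0.122 to 0.167 in winter.

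Of 6 genes that need NOBOX in the mouse, 5 were called higher and 0 lower, with a median difference of 1.17. These were GDF9 (1.12) and BMP15 (1.17), which the oocyte secretes to the follicle, the meiotic kinase MOS (1.17), the maternal RNA binding protein ZAR1 (1.22) and H1-8, whose means were 1134 and 513 TPM. POU5F1, a pluripotency factor, had means of 66.0 and 34.1 TPM and a difference of 0.99 (limma adjusted p = 0.0206), just under the limit. Without winter E, 2 of the 6 were called, and the differences of GDF9 (0.89), BMP15 (0.96) and MOS (0.98) fell under the limit. The ratio of NOBOX to GDF9 was 0.135 to 0.155 in summer and 0.103 to 0.166 in winter, with overlap. GDF9, BMP15, MOS, ZAR1, H1-8 and the zona genes were part of the 28-gene oocyte list, so their levels after scaling to it are no separate measurement. KIT, a receptor that needs the SOHLH factors in the mouse, had a difference of 0.53 (adjusted p = 0.179).

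**Figure D5:**
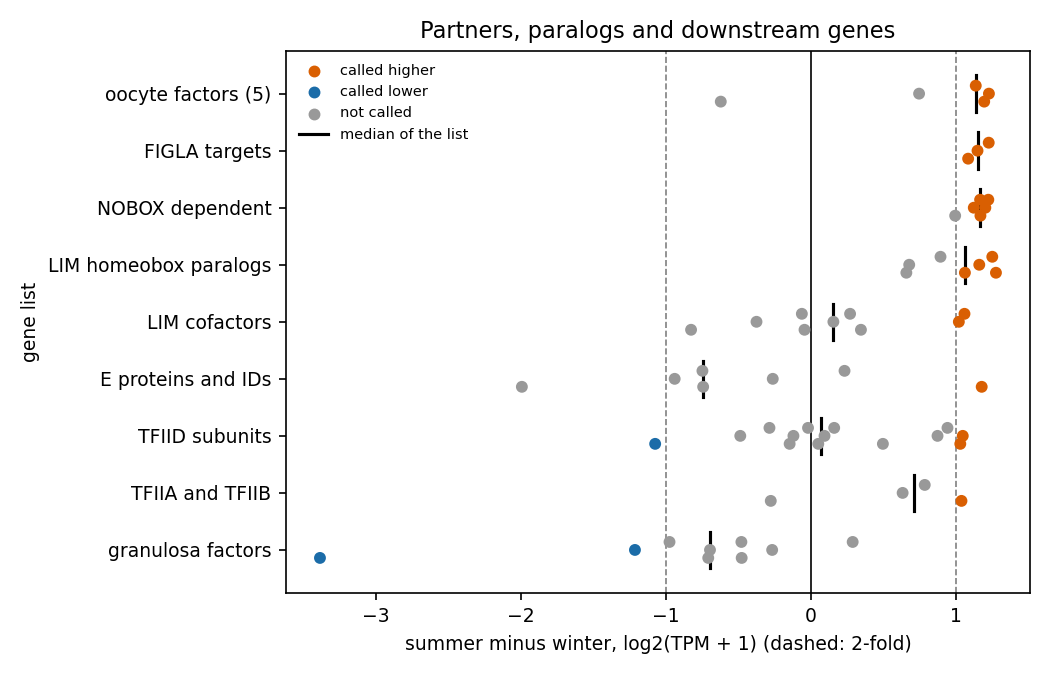
Season difference of every tested gene of each list (horizontal axis, log2(TPM + 1), summer minus winter), with 1 row per list, 1 point per gene and a mark at the list's median. The medians of the members (1.14), the zona pellucida genes (row FIGLA targets, 1.15) and the NOBOX dependent genes (1.17) lie close together. They lie above that of the TFIID list (row TFIID subunits, 0.07). The 28 oocyte genes, which are not drawn and include most of these targets, have a median of 1.16, so this closeness is shared by oocyte transcripts. The members spread from -0.62 to 1.23 and the TFIID list from -1.08 to 1.05, where the highest gene is TBPL1, not a TFIID subunit.

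Other transcription factors of the germ line and of granulosa cells gave the surroundings of these values. Of 19 germ-cell factors 9 were tested, and 2 were called higher and 0 lower. YBX2, a germ-cell mRNA binding protein, had means of 788 and 328 TPM (1.31, limma adjusted p = 0.00504), and ZGLP1, a zinc finger factor that starts the oogenic program in mice, had 176 and 72.0 TPM (1.34, adjusted p = 0.00500). SALL4 was just under the limit at 0.99 (adjusted p = 0.0160). NANOG, TFAP2C and ZSCAN4 were listed at 0 in all libraries. Of 9 granulosa factors 0 were called higher and 2 lower, with a median difference of -0.70. They were RUNX1 (-1.22) and RUNX2 (-3.39), of which RUNX2 passed the filter on low values only through its winter libraries, with means of 2.02 and 27.6 TPM in summer and winter. GATA6 (-0.98, adjusted p = 0.0253) and GATA4 (-0.70, adjusted p = 0.0352) were lower by the adjusted p alone, and FOXL2 had a difference of -0.48.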

How the data were processed

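RNA of denuded oocytes was sequenced in 4 summer and 4 winter libraries, grouped by their titles. The deposited values are TPM, which the authors computed from trimmed and mapped paired reads of polyadenylated RNA. The study's methods name CLC Genomics Workbench, whereas DESeq2, Bowtie2 2.2.2 and bcl2fastq, with the build ARS-UCD1.2, stand in the processing notes of the submitters, and which produced the table was not settled. TPM keeps no depth per library, near-identical copies can share reads, and antisense genes were not told apart. The study aspirated the same cows in both seasons and speaks of corresponding replicates. The labels do not say which cows are in which library, and the main fit took the pools as unpaired. Each p-value thus reflects only variation among pools.

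The limma package (version 3.58.1, under R 4.3.3) compared log2(TPM + 1) between seasons, using lmFit and eBayes with a trend and no other term, for genes with zFPKM above -3 in all 4 libraries of at least 1 season. The pseudocount understates differences of low genes. Alternatives were the pseudocounts 0.1 and 0.5, other filters, scalings and variance models, a 1.5-fold null, a cumulus and granulosa covariate, a block by library letter, and each library left out.

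The members and lists were chosen with earlier results of these data known. Genes named were all members, the called genes of each list with up to 4 others (the 2 smallest p and the 2 highest means), the mouse target genes, and the 3 genes most like each member. The ratios were chosen after values were seen. No sequence or coordinate was used, and a planned motif search was not run.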

Additional observations from a re-analysis of the deposited data

Results flagged for a closer look

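In 10 of 128 groups of 4 libraries 1 library stood apart from the other three by Dixon's criterion, which chance alone gives in about 1 in 20 groups. TAF4B was the only member among them, with 20.7 TPM in winter A against 4.19 to 6.57 TPM in the other winter libraries. The 3 genes most like it did the same in winter A: EPHA2 at 235 TPM against 62.6 to 67.6, RELB at 52.0 TPM against 9.71 to 15.8, and SERPINB1 at 40.3 TPM against 12.8 to 17.4. They were picked for that likeness, so they add no independent case.

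Among the partner and target genes, summer C was low for H1-8 (965 TPM against 1177 to 1213) and for GTF2A2 (153 TPM against 192 to 196). Summer B was high for ID1 (7.59 TPM against 5.15 to 5.44) and for ZP2 (1997 TPM against 1619 to 1640). Winter B was high for ZAR1 (740.2 TPM against 394 to 445), and winter E was low for KIT (19.2 TPM against 47.4 to 51.7).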

How the results depend on the processing

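Of the 5 members, 3 were called higher as reported, 0 after scaling to the oocyte list, 0 with the cumulus and granulosa covariate and 0 against a 1.5-fold null, and 1 to 3 with 1 library left out (1, NOBOX, without winter E). The 0 called lower became 1, TAF4B, after oocyte scaling. The 4 higher at the adjusted p alone became 0 after oocyte scaling and 0 with the covariate. With letter as a replicate block 2 members were higher at the adjusted p, with FIGLA at 1.23 (limma adjusted p = 0.0437), NOBOX at 1.12 (0.0485), LHX8 at 1.31 (0.0536) and TBPL2 at 0.77 (0.127). The deviations of same-lettered libraries from their season means had low correlations, of 0.0492, 0.138 and 0.201, which were not tested. All 3 summer libraries with a partner matched their own letter best. Letters C and D each had a library in only 1 season, so the block took the season difference from letters A, B and E alone. The block left 0 of 3 zona pellucida, 0 of 4 LIM homeobox and 0 of 2 LIM cofactor calls. It also left 2 of 5 NOBOX dependent calls and, on the TFIID list, 1 of 2 higher and 0 of 1 lower calls. How much of these losses came from the smaller comparison was not tested. The causes were not tested.

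Over all genes, 589 were called higher and 692 lower as reported, 722 and 585 after quantile normalization, 2 and 7474 after oocyte scaling, 32 and 278 with the covariate, 179 and 296 with the block, 3 and 64 against 1.5-fold, and 270 to 983 and 518 to 768 with 1 library left out. Of 33 named genes called, 15 were still called without winter E, 16 with the block, 1 with the covariate, 28 after quantile normalization (lost: GTF2A1L, LHX2, TAF5, TAF13 and TBPL1) and 30 with no filter (lost: LMO1, LHX3 and ISL2). After oocyte scaling the signs turned for 26 of the named genes, which includes 8 of those called, GTF2A1L (-0.0542), LHX2 (-0.0305), LMO1 (-0.0723), LMO3 (-0.0334), TAF5 (-0.0623), TBPL1 (-0.0453), ZNF200 (-0.0693) and ZP2 (-0.00813). Among the 18 others were TBP (-0.22), POU5F1 (-0.10), SALL4 (-0.10) and GTF2B (-0.31), and GTF2A2 (-0.46, limma adjusted p = 0.0393) and KIT (-0.56, adjusted p = 0.0468) then passed the adjusted p with the opposite sign. TPM does not carry each library's depth, so the counting error of single values was not computed.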
